A study of Mus musculus with 37 samples.

Results

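The data described here are the difference between the injured side of the brain and the opposite side, gene by gene, in astrocytes of mice that did or did not develop post-traumatic epilepsy. All 12 injured mice with both an ipsilateral and a contralateral hippocampal library were taken, which gave 24 of the 37 libraries of the series. For each mouse and gene the contralateral log2 normalised count was subtracted from the ipsilateral one (the side difference), and the side differences of 4 mice with epilepsy (PTE+) were compared with those of 8 mice without it (PTE-). The description covers the 10353 genes, of 21975 listed, that had at least 10 counts in at least 20 of the 24 libraries.

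All 12 animals were adult male mice, CD1 by the study's methods and marked "WT CD31 Injured" in the labels, and received a controlled cortical impact (CCI), in which a piston driven into the exposed cortex models a contusion. PTE+ and PTE- were assigned from electroencephalography between 2 and 4 months after the impact, and the astrocytes were taken 4 months after it. A mouse counted as PTE+ when at least 2 seizures were recorded. Hippocampal astrocytes were pulled out of the dissociated tissue with beads against the surface antigen ACSA-2. Both hippocampi of an injured mouse share the genotype, the electrodes and the seizures of that animal, and the deep impact used for these mice left little ipsilateral hippocampus. A further 3 injured mice (1 PTE+ and 2 PTE-) had a contralateral library alone and could give no side difference. The 5 sham mice, sampled from both sides at the same time, had the craniectomy and the electrodes by the study's methods but no impact. They serve below as the reference for how far the sides differ without an impact. Mouse names begin with a8 (1 PTE+ and 3 PTE-) or a9 (3 PTE+ and 5 PTE-), and what these prefixes stand for is not given in the sources used here.

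Astrocytes take up glutamate and potassium released by active neurons, are coupled through gap junctions built from connexins 43 and 30, and supply neurons with lipids and secreted growth factors. After injury they become reactive and raise intermediate filament genes such as Gfap and Vim. A contusion is one-sided, while seizures may spread to both hemispheres, so the side difference asks whether the 2 hippocampi of a mouse with seizures were less or more alike than those of an injured mouse without them.

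The libraries held 32526127 to 55333329 counts (median 46849397). All 25 astrocyte markers listed were among the genes tested, and their summed level was 77550 to 195170 CPM (counts scaled to a common library total). By contrast, the 21 microglia and macrophage markers summed to 28.6 to 2127 CPM and the 25 neuronal markers to 403 to 3218 CPM. A pair of libraries stood apart. In the ipsilateral library of PTE- mouse a8_11 only 6940 genes reached 10 counts, and 2237 genes were at 3 counts or fewer there, which is 31.9% of the 7015 genes whose median count exceeded 1000. The ipsilateral library of PTE- mouse a8_14 had 9457 genes with 10 counts and 854 of these 7015 genes (12.2%) at 3 counts or fewer, whereas the share was at most 7.23% in each of the other 22 libraries.

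The size of the difference between the hippocampi of a mouse overlapped between PTE+ and PTE- mice. Over all genes tested, the median size of the side difference on the log2(CPM + 1) scale was 0.60 in a8_10, 0.36 in a9_17, 0.69 in a9_18 and 0.73 in a9_19, the 4 PTE+ mice. In PTE- mice it ran from 0.38 through a median of 0.90 to 2.71. No PTE+ mouse exceeded 0.73 while 5 of the 8 PTE- mice did, but PTE- mice a9_12 (0.45) and a9_13 (0.38) were as even as the PTE+ mice. The group means were 0.59 ± 0.17 (SD, n = 4) and 1.04 ± 0.73 (SD, n = 8), a difference of -0.44 (two-sided exact permutation test, p = 0.285). Within the a9 mice the difference was -0.092 (exact p = 0.571).

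Counted as genes with a difference of more than 2-fold between the sides, the share was 30.5%, 11.97%, 35.9% and 38.0% in the PTE+ mice and 15.2% to 76.7% (median 46.3%) in the PTE- mice (exact p = 0.244). Spearman's rho between the 2 hemispheres of a mouse, across genes that are not independent replicates, was 0.75 to 0.91 in PTE+ and 0.42 to 0.90 in PTE- mice (difference 0.12, exact p = 0.208). The log2 ratio of detected genes (ipsilateral over contralateral) was -0.27 to 0.07 in PTE+ and -1.004 to 0.45 in PTE- mice (exact p = 0.935). Adjusted over these 4 measures, the smallest p was 0.380. Mouse a8_11 held the extreme value of each measure on the uneven side.

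**Figure D1:**
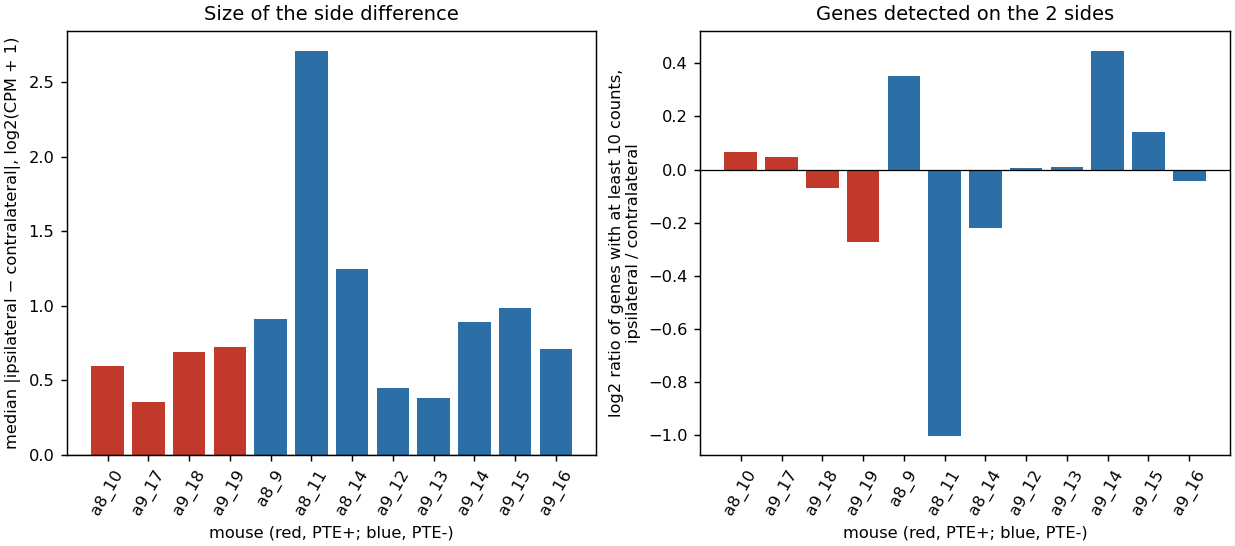
Left, the median absolute ipsilateral minus contralateral difference over 10353 genes in log2(CPM + 1); right, the log2 ratio of genes with at least 10 counts, ipsilateral over contralateral; 1 bar per mouse, PTE+ in red and PTE- in blue. The 4 PTE+ mice lie between 0.36 and 0.73 on the left, PTE- mouse a8_11 stands at 2.71, and the same mouse has a ratio of -1.004 on the right.

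No gene had a side difference that differed between PTE+ and PTE- mice after adjustment over all genes tested. In edgeR's quasi-likelihood test with the mouse as a block, 0 of 10353 genes had a Benjamini-Hochberg adjusted p under 0.05 (0%), and every adjusted p was 1. At an unadjusted p under 0.05 there were 53 genes (0.512% of those tested), 25 with a higher (0.241%) and 28 with a lower (0.27%) side difference in PTE+ mice. DESeq2 on the same counts gave 8 genes with an adjusted p under 0.05 and limma on log2(CPM + 1) gave 0. When the study's criteria for single contrasts (mean TPM above 5 in 1 group, unadjusted p under 0.05, at least 1.2-fold) were applied to this fit, 46 genes met them (0.444%), 24 higher (0.232%) and 22 lower (0.212%). By exact permutation of the 12 mice, 201 genes (1.94%) had a two-sided p under 0.05. This share and that of the edgeR calls are both below the fraction of 0.05 expected when no gene differs. With 495 ways to choose 4 of 12 mice the smallest possible p is 0.00202, which 5 genes reached, and the smallest adjusted exact p was 1. With so coarse a p over 10353 genes, the adjusted exact test could call genes only if very many reached the smallest p. It could therefore hardly have called a single gene.

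The spread of the side differences between mice was wide. The common biological coefficient of variation, estimated with the mouse terms in the fit, was 1.06, and the median standard error of a gene's log2 fold was 1.56. It also holds the losses of single libraries described above. The mean side difference was higher in PTE+ mice for 5577 genes (53.9%), with a median difference of 0.07 and a range from the 5th to the 95th percentile of -1.64 to 1.59. The side differences of the groups did not overlap for 14 genes with all PTE+ mice above all PTE- mice (0.135%) and 5 genes with all PTE+ mice below (0.0483%). Random labels would give 1 gene in 495 for each direction, so neither share is larger than chance gives. What follows therefore gives the values of genes that lead by unadjusted p, none of which passed the adjustment.

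**Figure D2:**
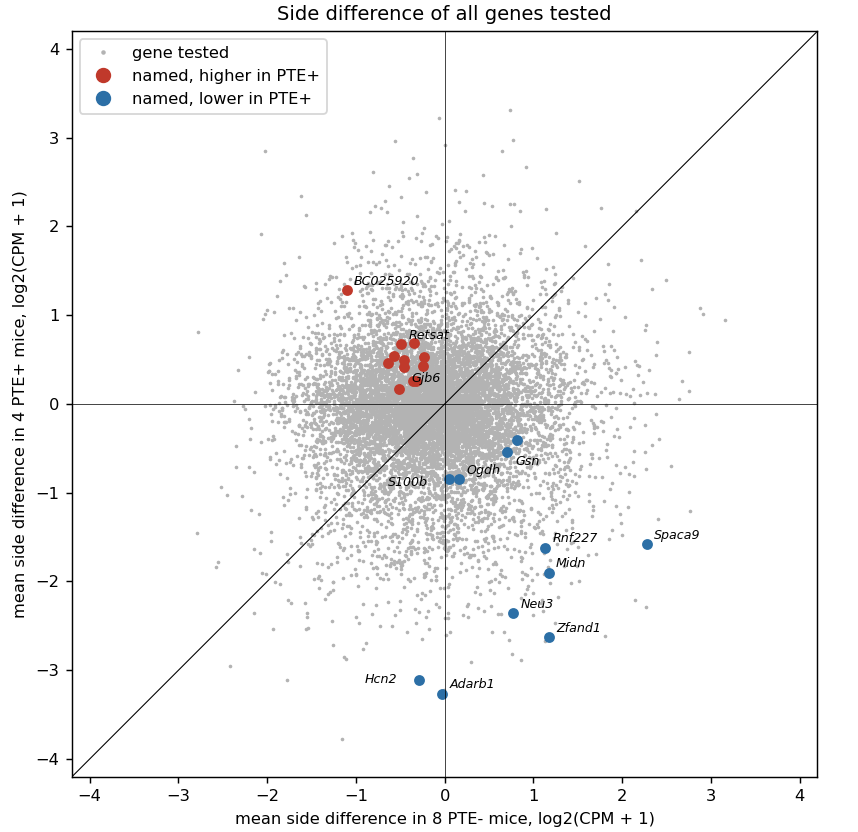
Mean side difference (ipsilateral minus contralateral, log2(CPM + 1)) of each gene tested in 8 PTE- mice (x axis) and 4 PTE+ mice (y axis); red and blue points are the 23 named genes with an unadjusted p under 0.05, higher and lower in PTE+, and the diagonal marks equal means. The red points lie in the quadrant where the gene was higher ipsilaterally in PTE+ and lower ipsilaterally in PTE- mice, and the blue points, all but Adarb1 and Hcn2, lie in the opposite quadrant.

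Among the 23 named genes with an unadjusted p under 0.05, 12 had a higher and 11 a lower side difference in PTE+ mice. Among the 12 higher genes the group means differed by 0.58 to 2.39. In all 12 the contralateral mean was lower in PTE+ than in PTE- mice, and in 11 the ipsilateral mean was higher. For 8 of the 12 the contralateral part was the larger. Among the 11 lower genes the reverse held in all 11 on both sides, and for 9 of them the ipsilateral part was the larger. Since the named genes were picked for the difference between sides, these counts describe them and test nothing.

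Syt11 (ENSMUSG00000068923, mm10 chromosome 3, 88744700 to 88775164, minus strand) encodes synaptotagmin 11, a vesicle trafficking protein. Its side difference was 0.28 in a8_10, 0.22 in a9_17, 0.27 in a9_18 and 0.25 in a9_19. In the PTE- mice it ran from -0.58 (a8_11) through a median of -0.37 to -0.01. Every PTE+ mouse was above 0 and every PTE- mouse below it, so the groups did not overlap. The difference between PTE+ and PTE- was a log2 fold of 0.58 ± 0.18 (SE; edgeR unadjusted p = 0.00593, adjusted p = 1), and the exact permutation p was 0.00202, the smallest possible. Contralateral levels were 905 ± 121 CPM (SD, n = 4) in PTE+ and 1074 ± 353 CPM (n = 8) in PTE- mice, and ipsilateral levels 1080 ± 136 and 854 ± 241 CPM. Within a9 mice the difference was 0.62 (exact p = 0.0179, the smallest that 3 against 5 allows). Sham mice ranged from -0.07 to 1.17. Leaving out any 1 mouse kept the unadjusted p at 0.0167 or below, while 6 of 15 other settings gave a p of at least 0.05, among them array quality weights, limma and the fit without the mouse block (largest p 0.180, fold 0.53 to 0.62).

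Retsat (ENSMUSG00000056666, chromosome 6, 72598475 to 72608425, plus strand) encodes retinol saturase, an enzyme of the endoplasmic reticulum that reduces retinol, and had the smallest p of all genes. The PTE+ values were 1.43, 0.07, 1.26 and -0.07 in a8_10, a9_17, a9_18 and a9_19, against -1.09 to -0.07 (median -0.47) in PTE- mice. A pair of PTE+ mice stood far above the PTE- mice, and the other two lay at 0, with a9_19 just inside the PTE- range. Its log2 fold was 1.17 ± 0.33 (SE; edgeR unadjusted p = 0.00375), and the exact permutation p was 0.00404. This difference lay on the contralateral side, where the level was 281 ± 205 CPM in PTE+ and 668 ± 430 CPM in PTE- mice (a log2 difference of -1.26). Ipsilaterally it was 441 ± 318 and 451 ± 243 CPM (-0.10). Sham mice ranged from -1.52 to 0.27, the a9 mice alone differed by 0.90 (exact p = 0.0357), and no left-out mouse raised the edgeR p above 0.0215. Without the mouse block, p was 0.139.

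Gjb6 (ENSMUSG00000040055, chromosome 14, 57123303 to 57133611, minus strand) encodes connexin 30, which together with connexin 43 forms the gap junctions between astrocytes. Side differences were -0.04, 0.51, 0.47 and 0.72 in PTE+ mice and -1.45 to 0.14 (median -0.47) in PTE- mice. The 3 a9 mice with epilepsy were above all PTE- mice and a8_10 was within their range. PTE+ and PTE- mice differed by a log2 fold of 0.87 ± 0.29 (edgeR unadjusted p = 0.00959; exact permutation p = 0.0141), and 0.92 within a9 mice (exact p = 0.0179). The contralateral levels of the groups did not overlap: 610 to 684 CPM in the 4 PTE+ mice and 826 to 1321 CPM in the 8 PTE- mice. Such a separation below the PTE- mice was seen for 13 of the 10353 genes (0.126%). Random labels would give it for 1 gene in 495, so this share is no larger than chance gives. On the ipsilateral side the level was 894 ± 188 CPM in PTE+ and 779 ± 169 CPM in PTE- mice, and the groups overlapped. The lowest ipsilateral value, 456 CPM, was that of a8_11. With any 1 mouse left out the edgeR p was at most 0.0356 (without a9_19), and it was 0.0569 with a covariate for detected genes and up to 0.0856 in limma.

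Gja1, the connexin 43 gene and far more abundant (3234 ± 514 contralateral CPM in PTE+ mice), had side differences of -0.03, 0.36, 0.17 and 0.26 in PTE+ and -1.04 to 0.82 in PTE- mice. Its groups overlapped throughout, with a log2 fold of 0.23 ± 0.26 (edgeR unadjusted p = 0.397). Of the 7 connexin, pannexin and junction scaffold genes tested (of 8 listed), 5 were higher in PTE+ mice and Gjb6 alone had an unadjusted p under 0.05.

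Asah1 encodes acid ceramidase, the lysosomal enzyme that cleaves ceramide (ENSMUSG00000031591, chromosome 8, 41340197 to 41374773, minus strand). In PTE+ mice the side difference was 0.00, 0.68, 0.18 and 1.29, and in PTE- mice -1.45 to 0.50 with a median of -0.57. All PTE- mice but a8_11 were below all PTE+ mice. The contralateral levels were again apart, 136 to 145 CPM in PTE+ and 195 to 349 CPM in PTE- mice, while the ipsilateral levels overlapped (219 ± 97.4 and 178 ± 57.6 CPM). This gave a log2 fold of 1.12 ± 0.40 (edgeR unadjusted p = 0.0144; exact permutation p = 0.00606). Without PTE+ mouse a9_19 it was 0.87 (p = 0.0636).

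Hacd3, a dehydratase of very long chain fatty acid elongation, had 0.94, 0.19, 0.53 and 0.45 in PTE+ mice and -0.90 to 0.42 (median -0.16) in PTE- mice. Its log2 fold was 0.76 ± 0.27 (edgeR unadjusted p = 0.0157), and 0.62 (p = 0.0624) without a8_10. Acsl3, an acyl-CoA synthetase that activates long chain fatty acids and is abundant in astrocytes, had 0.43, 0.55, 0.29 and 0.42 against -0.98 to 0.70 (median -0.27). Msmo1, an oxidase of cholesterol synthesis, had 0.00, 0.25, 0.11 and 0.32 against -1.20 to 0.58 (median -0.66). In both genes the PTE+ mice were tightly grouped and PTE- mouse a8_9 lay above them all. The log2 folds were 0.68 ± 0.30 for Acsl3 (p = 0.0432) and 0.69 ± 0.30 for Msmo1 (p = 0.0388), and each call was lost in 8 of 12 fits with 1 mouse left out. These were, for Acsl3, each of the 4 PTE+ mice and a8_11, a8_14, a9_12 or a9_16 (p = 0.0598 to 0.0946, fold 0.58 to 0.72), and for Msmo1 each of the 4 PTE+ mice and a8_14, a9_14, a9_15 or a9_16 (p = 0.0519 to 0.0901, fold 0.63 to 0.74).

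Ptn encodes pleiotrophin, a secreted heparin-binding growth factor. The PTE+ values of 0.08, 0.18, 0.22 and 0.54 stood against -0.94 to 0.12 (median -0.20) in PTE- mice, where a9_12 alone was above 0. Its log2 fold was 0.61 ± 0.23 (edgeR unadjusted p = 0.0197; exact permutation p = 0.0162), and 0.51 (p = 0.0698) without a9_19. The Ptn call was also lost in 6 of 15 other settings, among them limma, array quality weights and the covariate for detected genes (largest p 0.206). Mdk, which encodes the related factor midkine and was picked here after its values were seen, had 0.47, 0.14, -0.24 and 0.62 against -0.79 to 0.17, with a log2 fold of 0.52 ± 0.39 (edgeR unadjusted p = 0.202). The remaining higher genes by the rule were Emc3, a subunit of the complex that inserts proteins into the endoplasmic reticulum membrane (1.10 ± 0.42, p = 0.0203), Cables1, a binding partner of cyclin-dependent kinases (1.04 ± 0.41, p = 0.0235), Adh5, which clears formaldehyde and nitrosoglutathione (0.95 ± 0.37, p = 0.024), and BC025920 (4.71 ± 1.80, p = 0.0209). In these 4 genes every PTE+ mouse was above 0, and 1 to 3 of the 8 PTE- mice were too. BC025920 was scarce (at most 52.1 CPM), with 2 libraries at 3 counts or fewer. Single mice ended each of these calls: a9_18 for Emc3 (p = 0.0574), a8_10 and a9_18 for Cables1 (p = 0.0549 and 0.0644) and for BC025920 (p = 0.0563 and 0.0553), and a9_17 and a9_19 for Adh5 (p = 0.0669 and 0.0505).

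**Figure D3:**
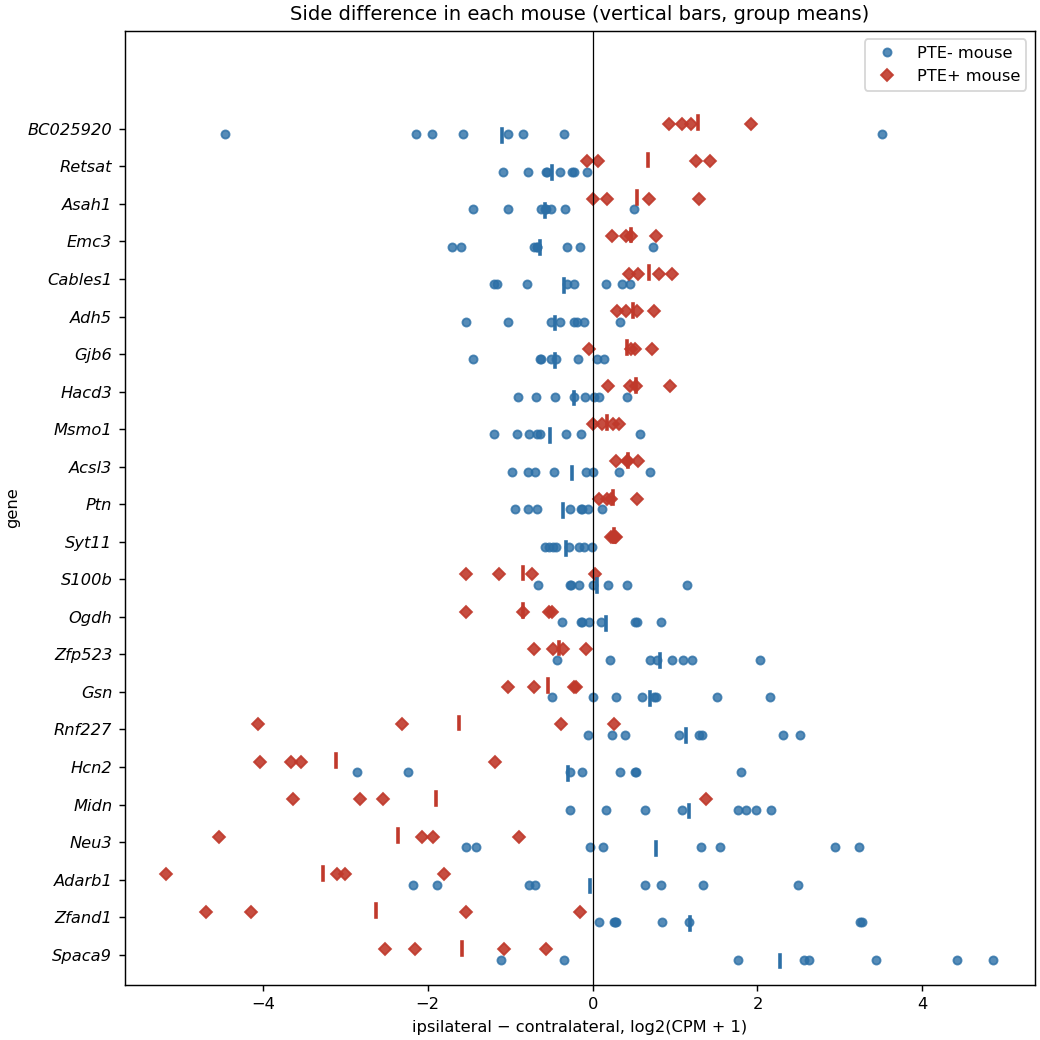
Side difference (ipsilateral minus contralateral, log2(CPM + 1)) of the 23 named genes with an unadjusted edgeR p under 0.05, with 1 red diamond for each of 4 PTE+ mice, 1 blue circle for each of 8 PTE- mice and a bar at each group mean. Syt11, Ogdh and Zfand1 show no overlap between the groups, and the scarce genes at the bottom spread over more than 4 log2 units.

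Ogdh led the genes with a lower side difference in PTE+ mice. It encodes the first subunit of the 2-oxoglutarate dehydrogenase complex, an enzyme of the tricarboxylic acid cycle (ENSMUSG00000020456, chromosome 11, 6291633 to 6356642, plus strand). The PTE+ mice had -0.84, -0.53, -0.49 and -1.54, and the PTE- mice -0.37 to 0.83 with a median of 0.03. Every PTE+ mouse was below every PTE- mouse. The groups differed by a log2 fold of -1.02 ± 0.33 (edgeR unadjusted p = 0.00917; exact permutation p = 0.00202), and -1.18 within a9 mice (exact p = 0.0357). Contralateral levels were 346 ± 80.5 CPM in PTE+ and 221 ± 50.9 CPM in PTE- mice, against 206 ± 98.4 and 246 ± 42 CPM ipsilaterally. Sham mice ranged from -0.56 to 1.22, and no single mouse left out raised p above 0.0436.

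Gsn encodes gelsolin, which severs actin filaments. Its values were -1.03, -0.20, -0.71 and -0.23 in PTE+ mice and -0.49 to 2.15 (median 0.68) in PTE- mice. All 4 PTE+ mice had less Gsn ipsilaterally, and 7 of 8 PTE- mice had more, the exception being a9_13. The log2 fold was -1.24 ± 0.44 (edgeR unadjusted p = 0.0138; exact permutation p = 0.0202). Ipsilateral levels were 298 ± 131 CPM in PTE+ and 575 ± 295 CPM in PTE- mice, and contralateral levels 470 ± 274 and 337 ± 128 CPM. The highest PTE- value was that of a8_11. Within a9 mice the difference was -0.94 (exact p = 0.107), sham mice ranged from -0.64 to 0.46, and leaving out 1 mouse at a time gave p of 0.0489 or less. With array quality weights the log2 fold of Gsn was -0.73 (p = 0.0919).

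S100b, a calcium-binding protein gene used as an astrocyte marker, had 0.03, -1.13, -0.74 and -1.54 in PTE+ mice and -0.66 to 1.15 (median -0.09) in PTE- mice. The 3 a9 mice with epilepsy were below every PTE- mouse, and a8_10 was in their midst. The log2 fold was -0.90 ± 0.41 (edgeR unadjusted p = 0.0463; exact permutation p = 0.0343), and -1.15 within a9 mice (exact p = 0.0179). The contralateral means were alike (226 ± 40 and 218 ± 111 CPM), and ipsilaterally the level was 134 ± 59.1 CPM in PTE+ and 215 ± 84.8 CPM in PTE- mice. This call was lost in 8 of 12 leave-one-out fits, those without a9_17, a9_18, a9_19, a8_14, a9_12, a9_13, a9_14 or a9_16 (p = 0.0512 to 0.159, fold -0.94 to -0.66). Sham mice ranged from -0.63 to 0.46.

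**Figure D4:**
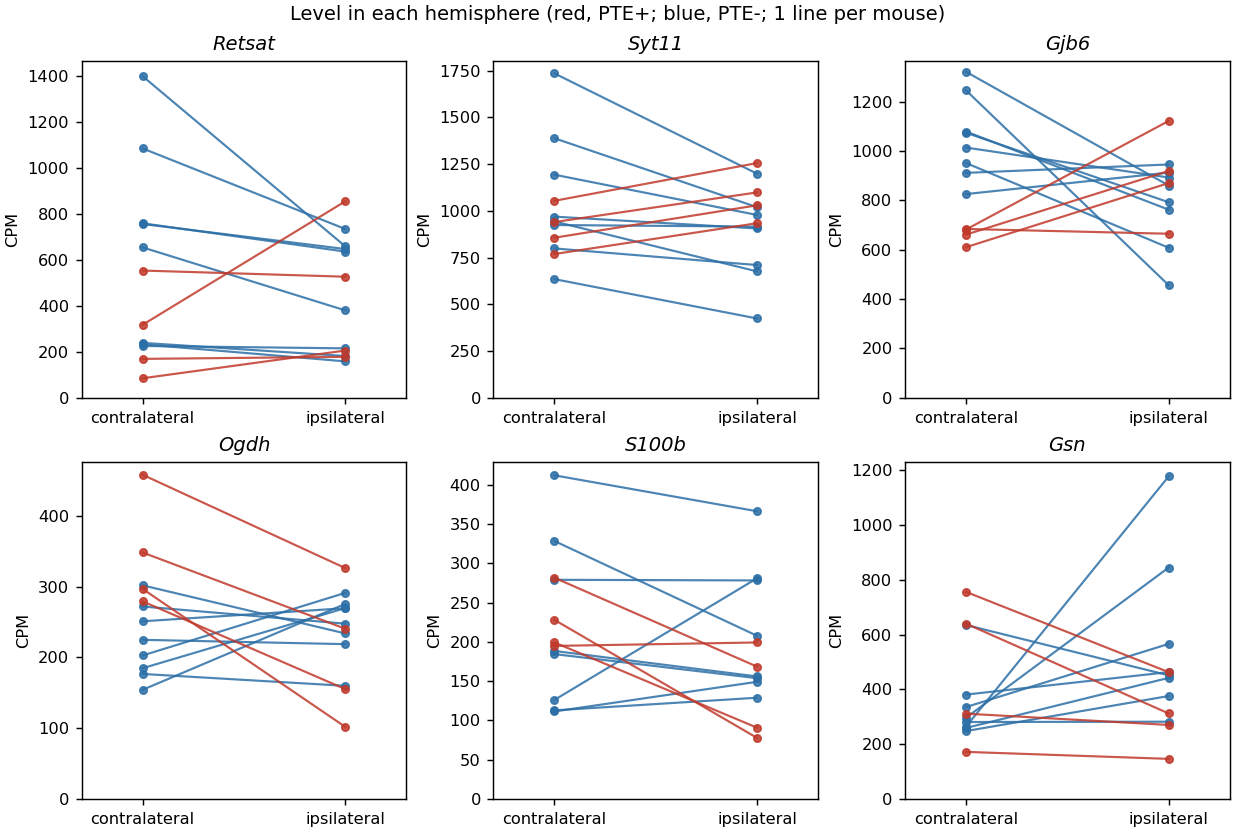
Level in CPM (y axis, from 0) by hemisphere, contralateral at left and ipsilateral at right, for Retsat, Syt11, Gjb6, Ogdh, S100b and Gsn; 1 line per mouse, PTE+ in red and PTE- in blue. For Gjb6 the contralateral PTE+ points (610 to 684 CPM) lie below all PTE- points (826 to 1321 CPM), and for Syt11 every red line runs upward and every blue line downward or level.

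Zfp523, a zinc finger protein gene, had -0.36, -0.48, -0.71 and -0.08 against -0.43 to 2.03 (log2 fold -1.24 ± 0.49, edgeR unadjusted p = 0.0233). The call was lost without a9_17 (-1.22, p = 0.054) or a9_18 (-1.14, p = 0.0625). The remaining 7 lower genes were scarcer, with larger and less certain folds. Zfand1, an AN1-type zinc finger gene linked to stress granule clearance, was the only one whose groups did not overlap. It had -1.54, -0.15, -4.14 and -4.69 in PTE+ mice and 0.08 to 3.27 (median 0.56) in PTE- mice, so all PTE+ mice were below 0 and all PTE- mice above it. Ipsilateral Zfand1 was 10.8 ± 13.4 CPM in PTE+ and 48.6 ± 34.4 CPM in PTE- mice. Its log2 fold was -4.30 ± 1.5 (edgeR unadjusted p = 0.0129; exact permutation p = 0.00202), and -3.48 (p = 0.0536) without a9_18.

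Adarb1 encodes the RNA-editing deaminase ADAR2, which recodes the glutamate receptor subunit GluA2. The PTE+ values were -3.10, -1.80, -5.17 and -3.0, and the PTE- values -2.18 to 2.49 (median -0.03). A PTE+ mouse, a9_17, lay above the lowest PTE- mice, a9_14 and a8_11. Its level was 17.8 ± 13.6 CPM contralaterally and 0.98 ± 1.49 CPM ipsilaterally in PTE+ mice, against 13.1 ± 16.9 and 9.84 ± 8.23 CPM in PTE- mice (log2 fold -5.09 ± 1.73, edgeR unadjusted p = 0.0113). Sham mice spanned -3.06 to 3.52, a wider range than that of either injured group.

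Hcn2, a hyperpolarization-activated cation channel gene, had -3.54, -1.18, -3.66 and -4.04 against -2.86 to 1.80, with 4 libraries at 3 counts or fewer. Its log2 fold was -8.06 ± 2.75 (edgeR unadjusted p = 0.0115), a fitted value that rests on libraries near 0, and p was 0.0517 without a9_19. On the log2(CPM + 1) scale, which understates the change of scarce genes, the group means of Hcn2 differed by -2.82. Neu3, which encodes the ganglioside sialidase of the plasma membrane, had -4.53, -2.07, -0.89 and -1.94 against -1.53 to 3.23 (log2 fold -5.37 ± 1.77, p = 0.00933). Rnf227, a RING finger gene, had 0.26, -0.38, -4.06 and -2.31 against -0.05 to 2.51 (-2.86 ± 1.15, p = 0.0269), and lost its call without a9_18 (-2.0, p = 0.0886) or a9_19 (-2.50, p = 0.0865). Midn, whose product midnolin feeds nuclear proteins to the proteasome, and Spaca9, a gene of ciliary microtubules, had log2 folds of -6.96 ± 2.64 (p = 0.0203) and -7.33 ± 2.90 (p = 0.025). PTE+ mouse a9_17 went against its group in Midn (1.37). The Midn call was lost without a8_10, a9_18 or a9_19 (p = 0.0681 to 0.0851), and the Spaca9 call without a9_18 (p = 0.0536). Of these scarce genes, Neu3, Hcn2, Midn and Spaca9 had 1, 4, 2 and 4 libraries at 3 counts or fewer.

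The genes with an adjusted p under 0.05 in DESeq2 included 5 of those above, all lower in PTE+ mice: Hcn2, Adarb1, Midn, Spaca9 and Zfand1 (DESeq2 adjusted p = 0.00717 to 0.0489). Ttc21b, a gene of intraflagellar transport, and Sco1, a gene of copper delivery to cytochrome c oxidase, were higher in PTE+ mice and were chosen after their values were seen. Both had an adjusted p of 0.0476 in DESeq2, and their unadjusted p in edgeR was 0.0303 and 0.0308. Ttc21b had 3.26, 1.02, 3.98 and 1.13 in PTE+ mice and -3.34 to 0.31 in PTE- mice, with no overlap. Sco1 had -0.02, 3.22, 3.16 and 4.08 against -4.64 to 3.46, and PTE- mouse a8_9 lay among the high PTE+ mice. Their folds rested on few reads, since 4 libraries of Ttc21b and 2 of Sco1 were at 3 counts or fewer.

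In 3 of the 12 higher genes (Retsat, Syt11 and Gjb6) and 4 of the 11 lower genes (Ogdh, Neu3, Adarb1 and Gsn) the unadjusted p stayed under 0.05 whichever of the 12 mice was left out. Over 15 other settings (14 for the scarcest genes), Neu3 and Zfand1 lost the call in 0, and Retsat, Asah1, Ogdh, Adarb1, Hcn2, Gsn, Zfp523 and Rnf227 lost it in 1. Emc3 lost it in 2, Spaca9 in 3 and the other 11 genes in 4 to 9. All 23 genes had the same sign within the a9 mice and in the comparison of the lone a8 PTE+ mouse with the 3 a8 PTE- mice, for which no test is possible. Since the genes were picked by p from these same mice, this agreement in sign and the leave-one-out results describe them and are no independent support. For all 23 the range of the 4 PTE+ mice overlapped that of the 5 sham mice. The range of the PTE- mice did so too, except for Rnf227. There all 8 PTE- mice (-0.05 to 2.51) lay above the sham mice (-4.21 to -0.12).

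Of the genes whose groups did not overlap, Gpm6a, a membrane glycoprotein gene and the most abundant of them, had 0.19, 0.21, 0.21 and 0.47 in PTE+ mice and -2.06 to 0.15 in PTE- mice (log2 fold 0.70 ± 0.35, edgeR unadjusted p = 0.0631). Zfp280d, a zinc finger gene, had 2.97, 1.05, 1.16 and 1.46 against -3.92 to 1.02 (3.11 ± 1.40, p = 0.0435). Gas8, which encodes a subunit of the axonemal dynein regulator, had 4.62, 0.48, 0.61 and 0.66 against -4.34 to 0.30, with an exact permutation p of 0.00202 and an edgeR unadjusted p of 0.139. Its extreme values rest on single libraries near 0, a8_10 contralaterally (0.52 CPM) and a8_11 ipsilaterally (0.35 CPM). These genes were picked for the separation, which is therefore a description.

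No gene of the reactive astrocyte lists had an unadjusted edgeR p under 0.05, and the medians per mouse overlapped between the groups. Of 13 pan-reactive genes 8 were tested, 7 of them lower and 1 higher in PTE+ mice, with a median difference of -0.48 beside 0.07 over all genes tested. The median of these genes was -0.23 to 0.14 in PTE+ mice and -1.90 to 1.17 in PTE- mice. Gfap, the main astrocyte intermediate filament, was 0.62, -1.09, 0.14 and -0.56 in PTE+ mice and -0.54 to 1.87 (median 0.36) in PTE- mice. The 4 PTE- mice above 0.9 (a9_13, a9_14, a9_15 and a9_16) exceeded every PTE+ mouse, while the other four lay among them. Its log2 fold was -0.83 ± 0.57 (edgeR unadjusted p = 0.169), and -1.74 within a9 mice (exact p = 0.0536) against 1.04 in the a8 mice, an opposite sign. Vim, the other filament gene, was 0.25, -0.16, 0.13 and 0.11 in PTE+ and -0.32 to 3.44 (median 1.07) in PTE- mice. The PTE+ mice lay close to 0 and 6 of 8 PTE- mice were above all of them (log2 fold -1.21 ± 0.63, edgeR unadjusted p = 0.0773). The highest Vim value was that of a8_11. Without this mouse the median of the 8 pan-reactive genes was -0.94, and without a8_11 and a8_14 it was -1.05, again with 1 of 8 higher.

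The genes of this paragraph were picked after their values were seen. Serpina3n, a secreted protease inhibitor raised in reactive astrocytes, was 1.46, 0.48, 2.0 and -1.79 in PTE+ and -7.57 to 7.04 in PTE- mice, and C4b, a complement gene, was 1.29, -0.05, 1.07 and 0.51 against -0.28 to 3.12. Neither group stood apart in these genes. Both Serpina3n extremes in PTE- mice came from libraries near 0, a8_11 ipsilaterally (0.08 CPM) and a9_14 contralaterally (0 CPM). S1pr3, a sphingosine-1-phosphate receptor, was -0.39, 0.86, -1.62 and -6.88 against -1.0 to 2.50 (exact permutation p = 0.0485, edgeR unadjusted p = 0.26). The value of -6.88 rests on 1 library, a9_19, where S1pr3 was at 0 CPM ipsilaterally and 117 CPM contralaterally. The A1 and A2 reactive sets had 8 of 12 and 3 of 13 genes tested, with medians of -0.27 (3 of 8 higher) and -0.73 (1 of 3 higher). Cytokine and STAT3 genes had a median of -0.34 with 3 of 9 higher. TGF-beta signalling genes had a median of -0.50 with 4 of 12 higher, among them lower values for the ligand gene Tgfb1 (-0.75, -1.15, -1.72 and -2.17 against -2.92 to 3.01, edgeR unadjusted p = 0.151) and the signal transducer Smad3 (-1.43, -0.19, -1.53 and -4.42 against -2.49 to 3.03, p = 0.141). Smad3 had 3 libraries at 3 counts or fewer.

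The lists below are read beside all genes tested, whose median difference was 0.07 with 5577 of 10353 higher, -0.12 with 4450 higher without a8_11, and -0.17 with 4345 higher in a9 mice. Of 25 astrocyte identity genes, 21 were higher, with a median of 0.21. An unadjusted edgeR p under 0.05 was reached by 2 (Gjb6 and Acsl3) in that direction and 1 (S100b) in the other. Without a8_11 the median was 0.05 with 18 of 25 higher, and in a9 mice it was 0.07 with 17 higher. The 16 potassium and water buffering genes had a median of 0.24 with 15 higher, which became 0.09 with 12 higher without a8_11 and -0.06 with 6 higher in a9 mice. Kcnj10, the main potassium channel of astrocytes, was 1.0, -0.06, -0.03 and -0.95 in PTE+ mice and -6.62 to 1.65 (median -0.50) in PTE- mice. The value of -6.62 was again a8_11, and the log2 fold of 0.65 ± 1.19 (edgeR unadjusted p = 0.592) turned to -0.63 in a9 mice. Aqp4, the water channel of astrocyte endfeet, was 0.36, -0.23, 0.27 and 0.12 against -1.17 to 0.63 (0.26 ± 0.30, p = 0.4).

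The glutamate transporter genes did not separate the groups. Slc1a2 (GLT-1) was -0.23, -0.03, 0.42 and -0.29 in PTE+ and -1.81 to 0.60 in PTE- mice (log2 fold 0.25 ± 0.39, edgeR unadjusted p = 0.536). Slc1a3 (GLAST) was -0.20, 0.26, 0.18 and -0.14 against -2.39 to 0.21 (0.53 ± 0.42, p = 0.23). The lowest value of both was in a8_11, and the next lowest in a8_14. Of the 14 glutamate uptake and glutamine cycle genes 8 were higher, with a median of 0.06. GABA handling genes had a median of 0.23 (8 of 14 higher), adenosine pathway genes 0.22 (6 of 9) and astrocyte fate factors 0.17 (16 of 21). Without a8_11 the glutamate, GABA, adenosine and fate factor medians were -0.015, -0.02, -0.165 and 0.213. In a9 mice they were -0.202, -0.047, -0.121 and 0.037.

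Cst3, the cystatin C gene and one of the most abundant here, had side differences of -0.44, 0.00, -0.07 and -0.55 in PTE+ mice and of -1.16 to 0.11 in PTE- mice, of which 7 of 8 were below 0. The groups overlapped, with a log2 fold of 0.09 ± 0.22 (edgeR unadjusted p = 0.704). Its contralateral level was 5200 to 11420 CPM in PTE+ and 7709 to 35100 CPM in PTE- mice, the highest being that of a8_11. Ipsilaterally it was 5188 to 8439 CPM in PTE+ and 6517 to 15830 CPM in PTE- mice. The mean was lower in PTE+ mice on both sides, by a log2 difference of -0.72 contralaterally and -0.63 ipsilaterally, and the groups overlapped on both. A shift shared by both sides leaves the side difference near 0, so the side difference does not measure it. The 13 cystatin and cathepsin genes had a median of 0.09 with 8 higher.

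Cholesterol synthesis and lipoprotein genes had a median of 0.26 with 18 of 25 higher (0.06 and 14 of 25 without a8_11, 0.27 and 18 of 25 in a9 mice). Msmo1 alone had an unadjusted edgeR p under 0.05. Synapse-organizing secreted factors had 0.24 with 11 of 17 higher, Ptn being the one with an unadjusted edgeR p under 0.05. Their median was 0.007 with 9 higher without a8_11 and -0.048 with 8 higher in a9 mice. Glycolysis and lactate genes had 0.09 (16 of 23), oxidative phosphorylation -0.04 (14 of 30), the antioxidant response 0.14 (12 of 19), heat shock chaperones 0.08 (12 of 21), the glucocorticoid response 0.08 (7 of 13) and MHC class I presentation 0.06 (8 of 14). Interferon response genes had 0.40 with 13 of 19 higher, but -0.02 with 9 of 19 in a9 mice. Metallothioneins and their zinc partners had 0.66 with 4 of 6 higher, immediate early genes -0.12 with 6 of 13 and cell cycle genes 0.30 with 7 of 10. In a9 mice these medians were 0.158, 0.386 and 0.022. Cytoplasmic ribosomal protein genes stood lower, at -0.38 with 9 of 34 higher. In this list the median side difference of a mouse was -0.03, -0.36, -0.25 and -0.51 in PTE+ mice and -0.89 to 0.53 in PTE- mice, of which 3 (a8_9, a9_14 and a9_15) were below 0. None of the 34 genes had an unadjusted edgeR p under 0.05. The exact permutation p of Rps23, picked after its values were seen, was 0.0202, and its edgeR unadjusted p was 0.211. Rps4x, the gene of this list with the smallest edgeR p (0.151), was higher in PTE+ mice (log2 fold 1.16 ± 0.76).

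**Figure D5:**
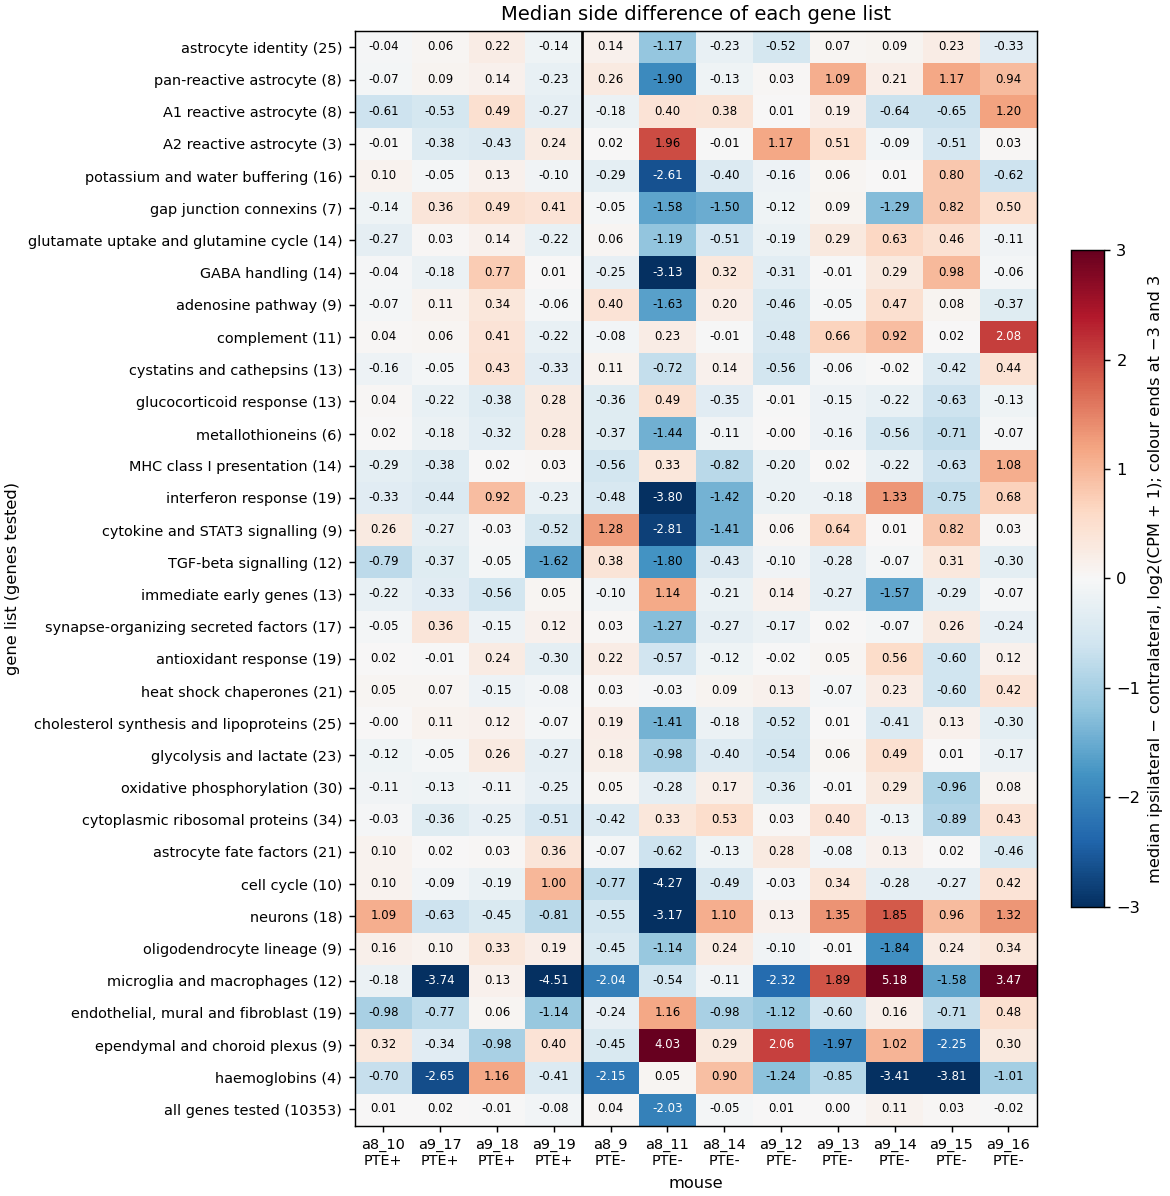
Median side difference (ipsilateral minus contralateral, log2(CPM + 1)) of each gene list in each mouse, PTE+ mice left of the line; the number of genes tested is in brackets and the colour ends at -3 and 3. Mouse a8_11 departs from the rest in many lists and in the median of all genes (-2.03), and microglia and macrophage genes range from -4.51 to 5.18 between mice.

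Transcripts of other cell types also differed in side balance between mice. In bulk libraries fewer cells of a type and less RNA per cell cannot be told apart. Of 21 microglia and macrophage markers 12 were tested, and 11 of these were lower in PTE+ mice, with a median difference of -2.56. None had an unadjusted edgeR p under 0.05. In PTE+ mice the median of the 12 markers was -0.18, -3.74, 0.13 and -4.51, and in PTE- mice it ran from -2.32 to 5.18. A pair of PTE+ mice (a9_17 and a9_19) had far fewer of these transcripts ipsilaterally, a9_13, a9_14 and a9_16 among the PTE- mice had far more, and the other seven lay between. C1qa, chosen after its values were seen as were C1qb and C3, encodes a subunit of the first complement component made by microglia, and was -1.02, -5.49, -0.48 and -4.55 against -2.43 to 5.25 (exact permutation p = 0.0485, edgeR unadjusted p = 0.157), and C1qb was 0.07, -4.93, 0.25 and -5.25 against -3.02 to 5.70. C1qa and C1qb were at 0 CPM ipsilaterally in a9_17 and a9_19 and contralaterally in a9_14. Their largest side differences therefore rest on libraries without reads of these genes. C1qa had 3 libraries at 3 counts or fewer, and C1qb 4. The summed level of all 21 markers was 499 to 1126 CPM contralaterally and 91.5 to 987 CPM ipsilaterally in PTE+ mice, and 28.6 to 2127 and 217 to 1442 CPM in PTE- mice, and no marker was at 0 in all libraries of a group. The complement list, which holds the 3 C1q genes, had a median of -0.41 with 3 of 11 higher. C3 was 1.85, 2.98, 1.70 and 2.16 in PTE+ mice, more ipsilaterally in all 4, and -3.35 to 6.5 in PTE- mice (edgeR unadjusted p = 0.731). It had 2 libraries at 3 counts or fewer.

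Neuronal markers had 16 of 18 tested genes lower in PTE+ mice and a median of -0.71. The median side difference of these markers was 1.09, -0.63, -0.45 and -0.81 in PTE+ mice and -3.17 to 1.85 in PTE- mice, of which 6 of 8 were above 0. Their sum was 406 to 3218 CPM contralaterally and 938 to 2200 CPM ipsilaterally in PTE+ mice, and 403 to 1320 and 481 to 1765 CPM in PTE- mice. All 9 ependymal and choroid plexus genes tested were lower (median -0.95, and -0.40 with 1 of 9 higher without a8_11), and Ttr and Aqp1 were at 0 in all 4 contralateral PTE+ libraries. The ependymal sum was 203 to 1906 CPM contralaterally and 352 to 8592 CPM ipsilaterally. Endothelial, mural and fibroblast genes had a median of -0.37 (6 of 19 higher) and sums of 1232 to 8835 CPM. Oligodendrocyte lineage genes were at 0.61 (6 of 9) and sums of 1010 to 3266 CPM. The 4 haemoglobin genes tested were all higher in PTE+ mice (median 0.81), from medians per mouse of -2.65 to 1.16 in PTE+ and -3.81 to 0.90 in PTE- mice. The haemoglobin sum was 83.4 to 3935 CPM. None of the 12 T and B cell markers passed the filter, and the 11 listed in the annotation summed to 0.08 to 85.4 CPM. How far the transcripts of other cell types take part in the side differences of Adarb1, Hcn2, Spaca9 and the other scarce genes was not tested.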

How the data were processed

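SMART-Seq V4 libraries of astrocytes from each hippocampus were sequenced as paired reads. After trimming with Trim Galore 0.6.4, the authors deposited expected counts and TPM per gene, made with RSEM 1.2.28 and Bowtie2 2.4.1 on mm10. The deposited expected counts are whole numbers, without normalization, and gave all tests. The deposited TPM, scaled by the authors to gene length and library, served for the TPM criterion and an alternative. Symbols and positions (mm10) came from GENCODE.

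Groups and mice were read from the labels, and libraries were paired by mouse name, since both come from 1 animal. Deviations from the group mean of the libraries of a mouse correlated at -0.061 to 0.199 (median 0.093), against a median of -0.016 between different mice. Genes with at least 10 counts in 20 of 24 libraries were scaled by TMM and fitted in edgeR 4.0.16 (R 4.3.3) by the quasi-likelihood test, with the mouse as a block and a side term for each status. The contrast was the side term of PTE+ minus that of PTE-, with p-values adjusted by Benjamini and Hochberg over all genes tested. Residual degrees of freedom were 10. Side differences per mouse are on log2(CPM + 1) and were compared by two-sided exact permutation of mice. Mice are separate animals. Alternatives included DESeq2 1.42.0 and limma 3.58.1. The edgeR fit was run on simulated counts, and the permutation test on a constructed case with a known answer. The outcomes are not given here.

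Named genes were the 10 with the smallest p in each direction that met the criteria of the methods with medians ordered as the fit, members of 34 gene lists with an unadjusted p under 0.05 (at most 4 a list), and 8 fixed astrocyte genes. The members and the lists were chosen with earlier results of these data known. Gene lists are described by counts and medians, with no test. Counting error was not measured apart from the spread between mice, and genes with libraries at 3 counts or fewer are the most exposed to it. The values of 1 gene called by DESeq2 are not reported here.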

Additional observations from a re-analysis of the deposited data

Results flagged for a closer look

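Of 68 groups of values examined for a mouse far from the rest of its group, 3 had one, and all 3 were PTE- mouse a8_11, whose ipsilateral library had 6940 genes with at least 10 counts. Chance gives about 1 such group in 20. The side difference of Kcnj10 was -6.62 in this mouse, against -2.13 in the next lowest PTE- mouse (a8_14). Its median absolute side difference was 2.707, against 1.247 in a8_14, and the log2 ratio of its detected genes was -1.004, against -0.220 in a8_14. How the low gene number of this library took part in these values was not tested. Without a8_11, 129 genes had an unadjusted p under 0.05 in edgeR (59 higher in PTE+), and 0 after adjustment.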

How the results depend on the processing

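No gene had an adjusted p under 0.05 in edgeR's quasi-likelihood test or limma under any alternative. DESeq2 gave 8. The number with an unadjusted p under 0.05 (53) and the number that met the criteria of the methods (46) depended on the setting: 319 and 296 in DESeq2, 196 and 179 in limma on log2(CPM + 1), 236 and 230 on log2(CPM + 5), 234 and 222 on log2(TPM + 1), 138 and 77 with no filter on low counts, 144 and 79 with filterByExpr, 630 and 592 with array quality weights, 420 and 400 with detected genes as a covariate, and 286 and 273 in a9 mice alone. With the 5 sham mice in the fit they were 79 and 73. Without a8_11 and a8_14, an alternative added after the data were seen, they were 184 and 171. The cause was not tested. Leaving out 1 mouse at a time gave 26 (without a9_18) to 129 (without a8_11), with 32 without a9_19, and 22 to 117 by the criteria, with 28 without a9_19. With no replicate block, that is without the pairing by mouse, they were 54 and 48.

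The difference in the size of the side difference ranged over leave-one-out from -0.535 to -0.203, that in rho from 0.078 to 0.146, and that in detected genes from -0.157 to 0.053. The last changed sign without a9_19 (0.053), a8_9 (0.037), a9_14 (0.051) or a9_15 (0.00712). Signs also turned for genes that were not called: Aqp4 with quality weights (-0.13) and in a9 mice (-0.15), Kcnj10 in a9 mice (-0.63) and without a8_11 and a8_14 (-0.12), Slc1a2 without these 2 mice (-0.093), and Cst3 without them (-0.0098), without a9_17 (-0.00113) or without a8_11 (-0.021), with a leave-one-out range for Cst3 of -0.021 to 0.18. For the 23 called genes 496 alternative values kept their direction and an unadjusted p under 0.05, and 119 kept the direction only. Reads of genes with 3 counts or fewer in a library limit the folds of scarce genes.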
